A study of Dichomitus squalens with 16 samples.

Results

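The comparison described here sets mycelium of the white-rot fungus Dichomitus squalens, strain LYAD-421 SS1, grown on powdered wheat bran against mycelium grown on powdered cotton seed hulls, both sampled on day 9. It rests on 4 of the 16 RNA-seq libraries of the series, 2 for each substrate, chosen by the substrate and the sampling day in their labels. The other 12 libraries hold the same strain on both substrates at day 16 and on spruce wood and aspen sawdust at both days, and they entered the fit so that all groups shared 1 estimate of the spread. Every culture in the series was seeded from a homogenised mycelial suspension grown for 4 days at 28 °C in low-nitrogen asparagine-succinate medium with 6.8 mM glycerol, and was then kept in 100 ml of that medium with 1 g of substrate, so asparagine, succinate and low nitrogen were common to both groups. Replicate numbers stand in the labels, but nothing there says that replicates came from separate cultures. The p-values then measure only the spread between replicate libraries, which may be technical. That spread came from all 16 libraries. Chi-square per degree of freedom between replicates was 27 and 29.3 on spruce and aspen at day 9. On wheat bran and hulls at day 9 it was 4.93 and 2.36. The SE of a gene therefore draws on wood libraries too, not only on those compared.

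White-rot fungi live by taking apart plant cell walls with secreted enzymes. Cellobiohydrolases and endoglucanases cut cellulose, lytic polysaccharide monooxygenases open it by oxidation, other hydrolases remove xylan, mannan and pectin, and peroxidases with their hydrogen peroxide suppliers attack lignin. Wheat bran is the starchy, protein-rich outer layer of the wheat grain with arabinoxylan walls, and cotton seed hulls are the seed coats, rich in cellulose, xylan and lignin and carrying short cotton fibres. Small secreted proteins such as hydrophobins coat fungal hyphae, and lectins bind sugars on the surface of other organisms.

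The wheat bran libraries held 8.42 and 8.74 M uniquely mapped reads and the cotton seed hull libraries 8.85 and 8.43 M. Levels are given as RPKM, reads scaled to gene length and library size, for replicate 1 and then replicate 2 of each substrate. Fold changes are wheat bran over cotton seed hulls on the log2 scale with their SE, from edgeR's quasi-likelihood test with Benjamini-Hochberg adjustment, and a gene passed at an adjusted p under 0.05. Of 10584 genes tested, 3574 (33.8%) passed, 1611 (15.2%) of them higher on wheat bran and 1963 (18.5%) lower. At least 2-fold differences made up 817 of these (7.72% of the genes tested), 443 higher (4.19%) and 374 lower (3.53%). The fit scales libraries by their trimmed mean of ratios, which puts the median gene at 0.02, whereas scaling by library size alone moved the median to 0.25 and the calls to 3345 higher and 933 lower, or 78.2% higher in place of 45.1%. Without hull replicate 2 there were 2239 calls, 887 higher, and without any other 1 of the 4 libraries 1021 to 1049 higher. RPKM carries only the library size, and with it 57.4% of genes had both wheat bran libraries above both hull libraries and 19.2% had both below, so lists below are read against the scaled fit. Less mycelium of one kind and less RNA per hypha cannot be told apart in such bulk samples.

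The widest gaps in favour of wheat bran belonged to a lectin, a protein without description, a WSC-domain protein and 2 membrane pumps. The ricin B-like lectin DICSQDRAFT_172726, of a family of sugar-binding proteins, stood at 1129 and 1050 RPKM on wheat bran and at 0.689 and 0.482 RPKM on cotton seed hulls. Those hull values are 3 and 2 reads, and per sequenced read the wheat bran libraries held 1851 times as many, with an exact 95% interval of 793 to 5701 that covers counting error only. The fitted log2 fold change was 10.56 ± 0.73 (adjusted p = 8.87e-06), so the lectin was among the abundant transcripts on one substrate and nearly absent from the other. DICSQDRAFT_182026, a hypothetical protein, reached 1960 and 1842 RPKM on wheat bran and 9.79 and 9.7 RPKM on hulls (log2 fold change 7.37 ± 0.45, adjusted p = 1.83e-06). Its neighbour in the annotation, DICSQDRAFT_172150, also without description and named after its values were seen, differed the same way with means of 81.2 RPKM on wheat bran and 7.54 RPKM on hulls (log2 fold change 3.19 ± 0.36, adjusted p = 0.000113). In each of these genes the replicates lay close together and far from the other substrate. All were chosen for a large change without overlap or after their values were seen. The second hypothetical gene of the group, DICSQDRAFT_108818, had 94.4 and 112 RPKM on wheat bran and 6.75 and 6.51 RPKM on hulls (log2 fold change 3.73 ± 0.55, adjusted p = 0.00111).

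Ion and lipid pumps of the P-type ATPase family, which move ions or phospholipids across membranes at the cost of ATP, held 3 of the 15 described genes that rose most on wheat bran. The calcium ATPase DICSQDRAFT_156959 had 29.6 and 30 RPKM on wheat bran against 1.5 and 1.12 RPKM on hulls (log2 fold change 4.27 ± 0.23, adjusted p = 1.15e-08). The sodium-potassium ATPase DICSQDRAFT_47382 had 82.6 and 90.5 RPKM against 4.89 and 3.91 RPKM (log2 fold change 4.06 ± 0.21, adjusted p = 2.25e-08). An aminophospholipid-transporting pump, DICSQDRAFT_161018, had 172 and 190 RPKM against 33.3 and 32.5 RPKM (log2 fold change 2.23 ± 0.12, adjusted p = 1.58e-09). All 3 pumps had both wheat bran libraries above both hull libraries, as their selection required. A WSC-domain protein, DICSQDRAFT_146435, of a domain found in carbohydrate-binding and wall-sensing proteins of fungi, had 50.7 and 47.1 RPKM on wheat bran and 2.18 and 1.05 RPKM on hulls, where it was covered by 13 and 6 reads (log2 fold change 4.66 ± 0.37, adjusted p = 4.78e-07).

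**Figure D1:**
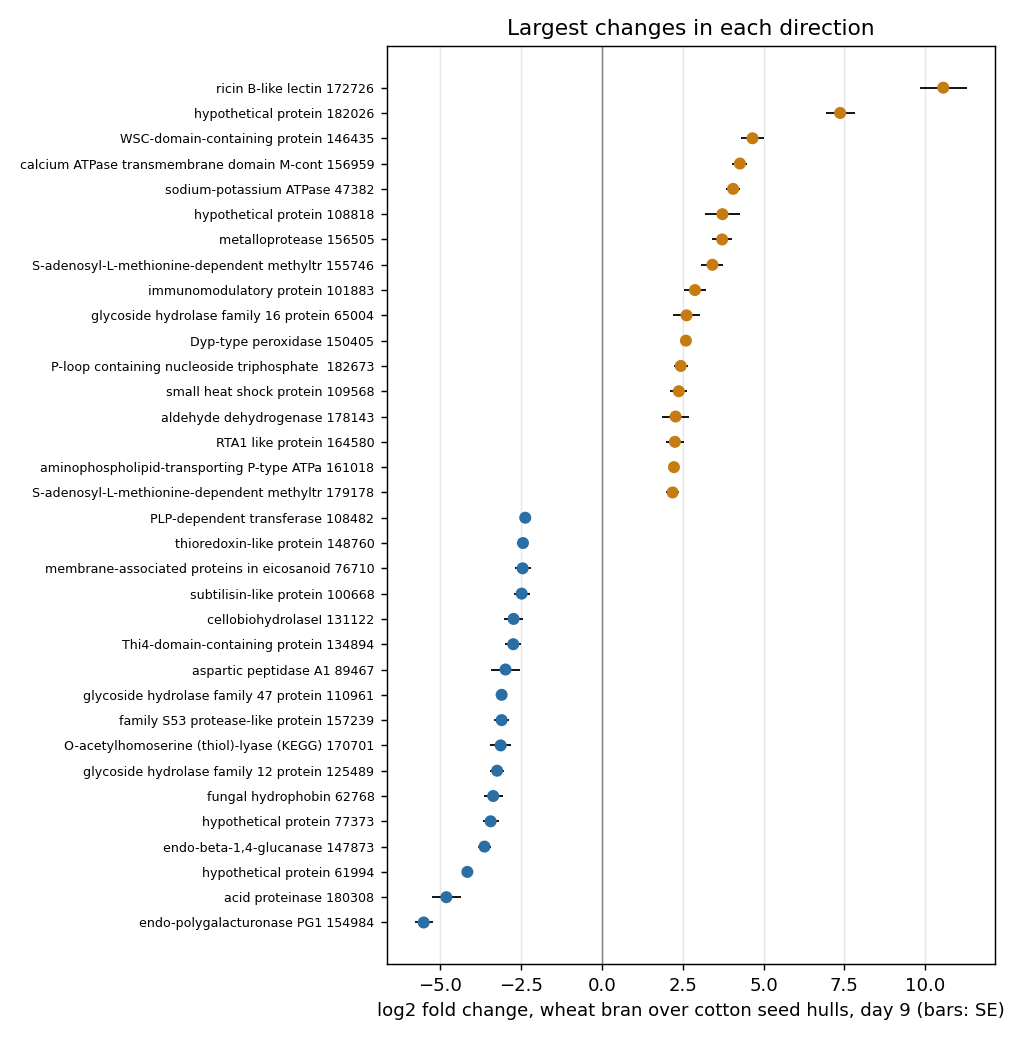
Log2 fold change of wheat bran over cotton seed hulls on day 9 for the 15 described and the 2 undescribed genes with the largest change in each direction, with the SE as a bar. Values run from 10.56 for the ricin B-like lectin to -5.51 for endo-polygalacturonase PG1. All genes shown were selected for passing the threshold.

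Another 4 of the 15 described genes were a chaperone, an immunomodulatory protein, a peroxidase and a protease. The small heat shock protein DICSQDRAFT_109568, a chaperone that holds unfolding proteins, was at 18485 and 11272 RPKM on wheat bran and 2528 and 2333 RPKM on hulls (log2 fold change 2.38 ± 0.26, adjusted p = 5.14e-05). It took 0.865% and 0.528% of all reads in the wheat bran libraries and 0.118% and 0.109% in the hull libraries. The wheat bran replicates differed from each other more than for the genes above, but neither came near the hull level. An immunomodulatory protein, DICSQDRAFT_101883, of a small lectin-like family known from bracket fungi, had 3350 and 2874 RPKM against 391 and 331 RPKM (log2 fold change 2.88 ± 0.33, adjusted p = 0.000138). The DyP-type peroxidase DICSQDRAFT_150405, a heme enzyme that oxidises dyes and phenolic compounds, had 940 and 878 RPKM against 132 and 122 RPKM (log2 fold change 2.60 ± 0.17, adjusted p = 1.5e-08). A metalloprotease, DICSQDRAFT_156505, had 105 and 121 RPKM against 7.36 and 7.26 RPKM (log2 fold change 3.72 ± 0.31, adjusted p = 1.59e-05). For all 4 the ranges of the substrates lay apart, as their selection required.

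The remaining described genes among the 15 were enzymes and membrane proteins of lower or middling level. A methyltransferase that uses S-adenosylmethionine, DICSQDRAFT_155746, had 331 and 309 RPKM on wheat bran and 24.5 and 26.4 RPKM on hulls (log2 fold change 3.42 ± 0.34, adjusted p = 7.38e-05). A family GH16 hydrolase, DICSQDRAFT_65004, of enzymes that act on beta-glucans, had 261 and 334 RPKM against 44.5 and 38.2 RPKM (log2 fold change 2.62 ± 0.43, adjusted p = 0.00197). A second methyltransferase, DICSQDRAFT_179178, a nucleoside triphosphate hydrolase of the P-loop kind, DICSQDRAFT_182673, an aldehyde dehydrogenase, DICSQDRAFT_178143, and an RTA1-like membrane protein, DICSQDRAFT_164580, completed the group. Their log2 fold changes were 2.19, 2.44, 2.28 and 2.26, and their wheat bran means lay between 12.2 and 29.2 RPKM. In each both wheat bran libraries were above both hull libraries, as their selection required.

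On cotton seed hulls the gene that stood out most was a pectin-cutting enzyme. Endo-polygalacturonase PG1, DICSQDRAFT_154984, which hydrolyses the backbone of pectin, was at 10.4 and 8.47 RPKM on wheat bran and 366 and 368 RPKM on hulls (log2 fold change -5.51 ± 0.28, adjusted p = 1.81e-07). Both hull libraries lay far above both wheat bran libraries, and its selection required that they lie above. Of 13 pectinases tested, 7 were lower on wheat bran and 2 higher, with a median of -0.42 against 0.02 over all genes and shares of 18.5% and 15.2% called lower and higher. The pectinesterase DICSQDRAFT_142507, an enzyme that removes methyl groups from pectin and is so named by its KEGG best hit, had 153 and 126 RPKM on wheat bran and 307 and 254 RPKM on hulls (log2 fold change -1.24 ± 0.12, adjusted p = 7.82e-07). A different pectinesterase by KEGG, DICSQDRAFT_176670, named after its values were seen, moved the opposite way, with 93.1 and 73.9 RPKM against 46.5 and 39.8 RPKM (log2 fold change 0.72 ± 0.13, adjusted p = 0.000406). The polygalacturonase thus had the widest gap in a list whose members did not all move together. Without wheat bran replicate 1, wheat bran replicate 2, hull replicate 1 or hull replicate 2 in turn, 1 pectinase was higher and 6 or 7 lower.

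Enzymes that take cellulose apart were lower on wheat bran. Cellobiohydrolases, which release cellobiose from the ends of cellulose chains, had 3 of 4 members lower and none higher, with a median of -1.56. The lower share was 75%, against 18.5% of all genes. Cellobiohydrolase I DICSQDRAFT_131122 had 26.5 and 51.8 RPKM on wheat bran and 191 and 251 RPKM on hulls (log2 fold change -2.73 ± 0.30, adjusted p = 0.000129). Cellobiohydrolase II DICSQDRAFT_152125 was the most abundant of the list, at 238 and 298 RPKM against 755 and 856 RPKM (log2 fold change -1.82 ± 0.15, adjusted p = 7.86e-07). In both genes the lower hull library stood above the higher wheat bran library, which held for 19.2% of all genes. For cellobiohydrolase I, among the 15 described genes of largest change, selection required it. The 2 wheat bran libraries of cellobiohydrolase I differed between themselves. Summed over the 4 members, the level was 335 and 424 RPKM on wheat bran and 1077 and 1270 RPKM on hulls.

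Endoglucanases, which cut within cellulose chains, had 4 of 7 members lower, none higher and a median of -1.16. The lower share was 57.1%, against 18.5% of all genes. The endo-beta-1,4-glucanase DICSQDRAFT_147873, which KEGG places with xylanases, had 3.05 and 2.4 RPKM on wheat bran and 29.1 and 28.7 RPKM on hulls (log2 fold change -3.63 ± 0.21, adjusted p = 3.03e-09). An endoglucanase of higher level, DICSQDRAFT_65561, had 30.1 and 33.3 RPKM against 59.1 and 61.3 RPKM (log2 fold change -1.16 ± 0.12, adjusted p = 2e-06). The second most abundant, DICSQDRAFT_172397, had 14.3 and 13.4 RPKM against 44 and 43.6 RPKM (log2 fold change -1.89 ± 0.16, adjusted p = 2.6e-07). A family GH12 protein outside the list, DICSQDRAFT_125489, of enzymes that cut cellulose and xyloglucan, had 15.2 and 14.8 RPKM against 125 and 116 RPKM (log2 fold change -3.24 ± 0.21, adjusted p = 8.39e-08). In none of these did the substrates overlap, as the selection of DICSQDRAFT_147873 and DICSQDRAFT_125489 for a large change required. With library size alone 1 endoglucanase was called higher.

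Oxidative partners of the cellulases differed in the same direction. Lytic polysaccharide monooxygenases, copper enzymes described in the files as family GH61, had 3 of 3 members lower. That was 100%, against 18.5% of all genes, with a median of -1.41. The most abundant, DICSQDRAFT_108020, had 14.2 and 17.6 RPKM on wheat bran and 58.6 and 61.5 RPKM on hulls (log2 fold change -2.15 ± 0.14, adjusted p = 1.63e-08). DICSQDRAFT_140533 had 3.76 and 3.23 RPKM against 6.06 and 8.31 RPKM (log2 fold change -1.27 ± 0.22, adjusted p = 0.000349). Cellobiose dehydrogenase, DICSQDRAFT_153749, which oxidises cellobiose and passes electrons to these monooxygenases, had 23.2 and 32.9 RPKM against 54 and 56.3 RPKM (log2 fold change -1.21 ± 0.13, adjusted p = 6.79e-06). Every hull value in these 3 genes was above every wheat bran value, an order found in 19.2% of all genes. Beta-glucosidases, which split cellobiose into glucose, had 2 of 9 higher, 1 lower and a median of 0.00. Those shares were 22.2% and 11.1%, against 15.2% and 18.5% of all genes. The most abundant, DICSQDRAFT_64087, had 142 and 153 RPKM on wheat bran and 111 and 101 RPKM on hulls and did not pass (log2 fold change 0.25 ± 0.17, adjusted p = 0.295). No beta-glucosidase was called higher without wheat bran replicate 1, hull replicate 1 or hull replicate 2, 1 was without wheat bran replicate 2, and 4 were with library size alone.

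**Figure D2:**
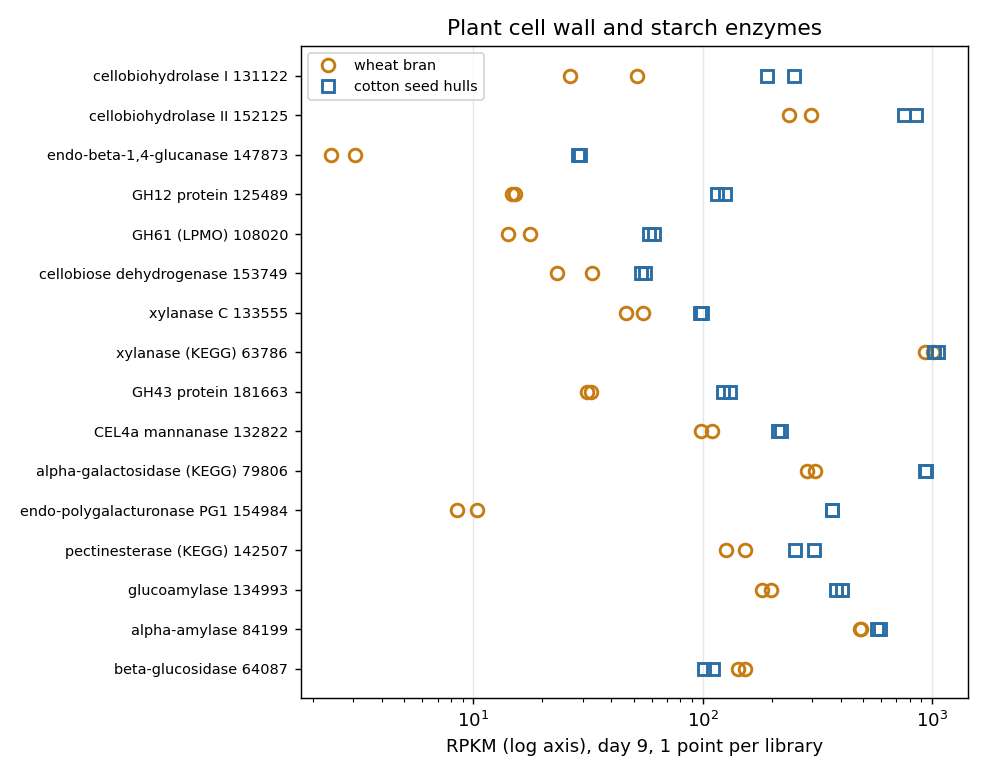
RPKM on a log axis of 16 plant cell wall and starch enzymes on day 9, with 1 point for each library, circles for wheat bran and squares for cotton seed hulls. Endo-polygalacturonase PG1 shows the widest gap, and the symbols of the abundant xylanase lie close together.

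Xylan-degrading enzymes differed in part. Xylanase C, DICSQDRAFT_133555, which cuts the xylan backbone, had 46.3 and 54.8 RPKM on wheat bran and 99.6 and 97.6 RPKM on hulls (log2 fold change -1.19 ± 0.10, adjusted p = 1.71e-07). The xylanase with the highest level, DICSQDRAFT_63786, named by KEGG, had 935 and 1009 RPKM against 1064 and 1019 RPKM and did not pass (log2 fold change -0.33 ± 0.13, adjusted p = 0.0538). Its substrates lay apart by a narrow margin, and it was called lower with DESeq2 size factors and in 4 further alternatives. Among 11 enzymes of xylan and arabinan side chains 5 were lower (45.5%, against 18.5% of all genes) and 2 higher (18.2%, against 15.2%). The family GH43 protein DICSQDRAFT_181663, of enzymes that release arabinose or xylose, had 32.7 and 31.4 RPKM on wheat bran and 131 and 123 RPKM on hulls (log2 fold change -2.21 ± 0.09, adjusted p = 8.99e-11). An abundant protein of the arabinanase fold, DICSQDRAFT_156340, had 1523 and 1389 RPKM against 1773 and 1669 RPKM (log2 fold change -0.47 ± 0.12, adjusted p = 0.00682), a call that did not hold under scaling by library size alone (adjusted p = 0.11), without wheat bran replicate 2 (adjusted p = 0.0809) and without hull replicate 1 (adjusted p = 0.0524). Feruloyl esterases free ferulic acid from arabinoxylan, and DICSQDRAFT_52596, named after its values were seen, went the other way at 6.54 and 6.37 RPKM against 2.38 and 2.05 RPKM (log2 fold change 1.31 ± 0.24, adjusted p = 0.000561).

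Enzymes of mannan and galactose-containing polymers were lower in 10 of 16 cases and higher in 1, with a median of -0.66. Those shares were 62.5% and 6.25%, against 18.5% and 15.2% of all genes. With library size alone the counts were 8 lower and 3 higher. The alpha-galactosidase DICSQDRAFT_79806, which removes galactose from galactomannan and raffinose-type sugars and is so named by KEGG, had 309 and 284 RPKM on wheat bran and 936 and 945 RPKM on hulls (log2 fold change -1.90 ± 0.14, adjusted p = 6.84e-08). CEL4a mannanase, DICSQDRAFT_132822, which cuts the mannan backbone, had 98.5 and 110 RPKM against 219 and 213 RPKM (log2 fold change -1.28 ± 0.10, adjusted p = 1.07e-07). These abundant members were both lower without overlap, an order found in 19.2% of all genes. The single member that rose, a beta-mannosidase by KEGG, DICSQDRAFT_164183, had 34 and 32.1 RPKM against 15.2 and 13.7 RPKM (log2 fold change 0.96 ± 0.10, adjusted p = 3.08e-06).

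Starch-degrading enzymes were divided. Of 12 members 6 were lower on wheat bran (50%, against 18.5% of all genes) and 3 higher (25%, against 15.2%). With library size alone 5 were lower and 5 higher. Glucoamylase DICSQDRAFT_134993, which releases glucose from starch, had 198 and 182 RPKM on wheat bran and 404 and 381 RPKM on hulls (log2 fold change -1.28 ± 0.13, adjusted p = 1.96e-06). The alpha-amylase of highest level, DICSQDRAFT_84199, had 485 and 491 RPKM against 591 and 576 RPKM (log2 fold change -0.49 ± 0.09, adjusted p = 0.000606). Both were lower on wheat bran with no overlap, an order found in 19.2% of all genes. Higher members numbered 2 without wheat bran replicate 2 and 1 without any other library of the 4, with 5 or 6 lower.

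Few ligninolytic genes passed the test. Class II peroxidases, the manganese, lignin and versatile peroxidases that attack lignin, had a median of -0.02. Of 12 members 1 was lower (8.33%, against 18.5% of all genes) and none higher. That gene, manganese-dependent peroxidase DICSQDRAFT_50355, had 44.6 and 37.6 RPKM on wheat bran and 120 and 122 RPKM on hulls (log2 fold change -1.79 ± 0.38, adjusted p = 0.00671), and the call was lost without wheat bran replicate 2 (adjusted p = 0.055). The most abundant member, manganese peroxidase DICSQDRAFT_141471, had 132 and 114 RPKM against 96.3 and 93.7 RPKM (log2 fold change 0.14 ± 0.20, adjusted p = 0.619). A fit on the 8 wheat bran and hull libraries alone called 3 of the 12 higher and 2 lower. Phenol-oxidising laccases with the related multicopper oxidases had 1 of 13 higher (7.69%) and 2 lower (15.4%), both below the 15.2% and 18.5% of all genes. Laccase DICSQDRAFT_67925 had 17.1 and 18.6 RPKM on wheat bran and 7.75 and 6.31 RPKM on hulls (log2 fold change 1.11 ± 0.24, adjusted p = 0.00351).

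Suppliers of hydrogen peroxide and handlers of small acids gave single genes that differed in either direction. Of 9 oxalate and formate enzymes 1 was higher and 1 lower (11.1% each), below the 15.2% and 18.5% of all genes. Of 31 GMC oxidoreductases 4 were higher (12.9%) and 7 lower (22.6%). Copper radical oxidases had 3 of 9 lower (33.3%, against 18.5% of all genes) and none higher. Glyoxal oxidase DICSQDRAFT_167685, which makes peroxide from small aldehydes, had 378 and 377 RPKM on wheat bran and 1164 and 1176 RPKM on hulls (log2 fold change -1.87 ± 0.18, adjusted p = 2.7e-06). Alcohol oxidase DICSQDRAFT_181599, which makes peroxide from methanol and is a GMC oxidoreductase, was among the most abundant transcripts, at 10490 and 10643 RPKM against 11007 and 10881 RPKM, and did not pass (log2 fold change -0.28 ± 0.23, adjusted p = 0.378). The alcohol oxidase took between 2.31% and 2.42% of the reads of each of the 4 libraries. Formate dehydrogenase DICSQDRAFT_51840, which oxidises formate to carbon dioxide, had 5785 and 6052 RPKM on wheat bran and 3621 and 3407 RPKM on hulls (log2 fold change 0.52 ± 0.11, adjusted p = 0.00162). Oxalate decarboxylase DICSQDRAFT_163336, which turns oxalate into formate, had 73.3 and 71.3 RPKM against 232 and 272 RPKM (log2 fold change -2.03 ± 0.46, adjusted p = 0.0102). The other oxalate decarboxylase genes of the list did not pass, with log2 fold changes from 0.07 to 1.35. On aspen at day 9, whose spread entered the same fit, DICSQDRAFT_163336 stood at 41.1 and 129 RPKM. Its call was lost without wheat bran replicate 1, wheat bran replicate 2 and hull replicate 2, with adjusted p of 0.0608, 0.0642 and 0.0518. Chloroperoxidase DICSQDRAFT_180751, a heme enzyme that halogenates and oxidises organic compounds, had 261 and 252 RPKM against 431 and 464 RPKM (log2 fold change -1.04 ± 0.13, adjusted p = 2.72e-05), opposite in direction to the DyP-type peroxidase. Their list of other heme and haloperoxidases had 2 of 9 higher (22.2%) and 3 lower (33.3%). Another chloroperoxidase was called higher like the DyP-type peroxidase, so genes of this description differed in both directions.

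**Figure D3:**
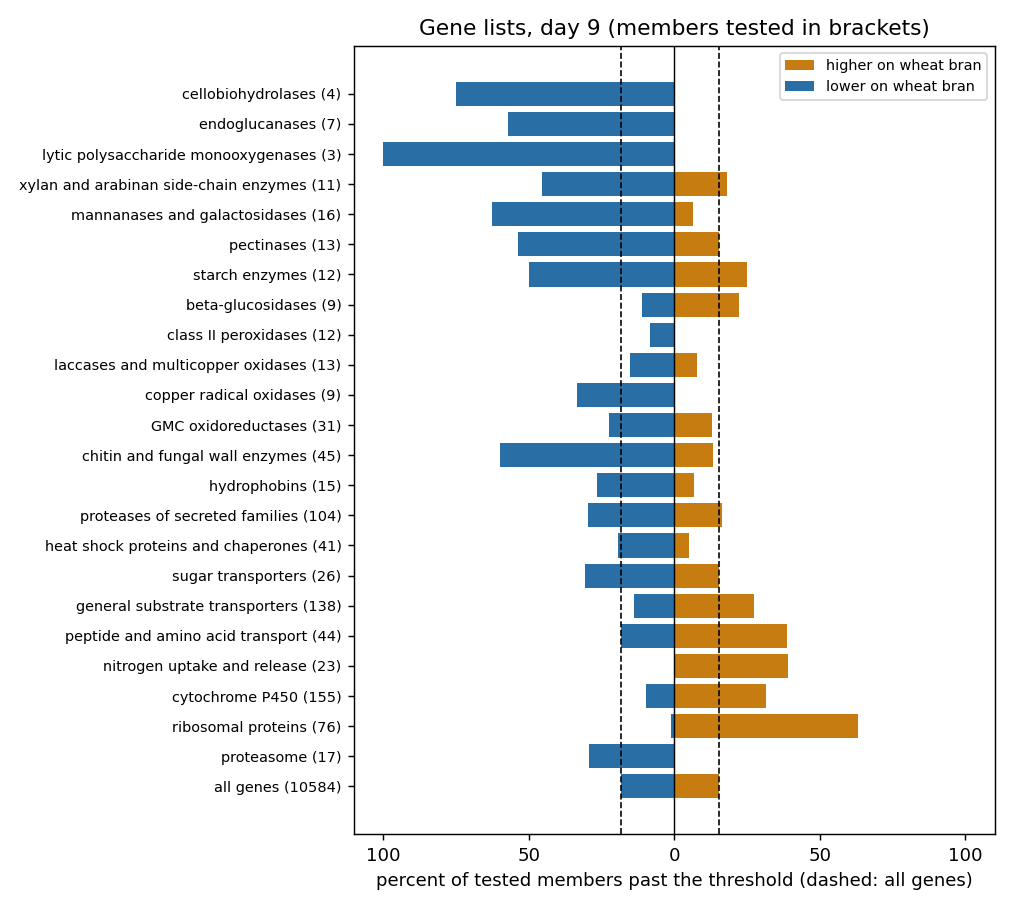
Percent of the tested members of 23 gene lists and of all genes that passed the threshold on day 9, higher on wheat bran to the right and lower to the left, with dashed lines at the 15.2% and 18.5% of all genes. Lytic polysaccharide monooxygenases reach 100% lower and ribosomal proteins 63.2% higher.

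Enzymes that build or open the fungal wall were mostly lower on wheat bran. Of 45 tested members of 47, 27 were lower (60%, against 18.5% of all genes) and 6 higher (13.3%, against 15.2%). Their median was -0.42, and with library size alone 19 were lower and 9 higher. The family GH16 protein DICSQDRAFT_69888, placed by KEGG with beta-glucanases, had 368 and 353 RPKM on wheat bran and 730 and 740 RPKM on hulls (log2 fold change -1.26 ± 0.09, adjusted p = 5.32e-08). Chitinases, which cut the chitin of fungal walls, gave several of the larger differences, here named after their values were seen. Chitinase DICSQDRAFT_104474 had 120 and 116 RPKM against 398 and 379 RPKM (log2 fold change -1.95 ± 0.11, adjusted p = 1.66e-09), and DICSQDRAFT_154478 had 64.4 and 61 RPKM against 263 and 280 RPKM (log2 fold change -2.35 ± 0.20, adjusted p = 6.66e-06). Chitinase DICSQDRAFT_69100 was higher, at 723 and 683 RPKM against 248 and 231 RPKM (log2 fold change 1.32 ± 0.35, adjusted p = 0.0186), a call lost without any 1 of the 4 libraries (adjusted p = 0.0725, 0.0592, 0.0819 and 0.105 in the order wheat bran 1 and 2, hulls 1 and 2). So chitinases of comparable level stood on both sides. The higher count was 4 without hull replicate 1, 3 without either wheat bran library and 1 without hull replicate 2, and the lower count stayed at 22 or 23 of the 45.

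Secreted proteases were divided, with the widest differences on the side of the hulls. Of 104 members 31 were lower (29.8%, against 18.5% of all genes) and 17 higher (16.3%, near the 15.2% of all genes). That balance turned to 23 lower and 29 higher with library size alone. Acid proteinase DICSQDRAFT_180308, an aspartic protease, had 28.1 and 22.5 RPKM on wheat bran and 592 and 620 RPKM on hulls (log2 fold change -4.81 ± 0.44, adjusted p = 5.27e-05). The S53 protease-like protein DICSQDRAFT_157239, of a family of acid-active peptidases, had 38.9 and 38 RPKM against 274 and 286 RPKM (log2 fold change -3.10 ± 0.23, adjusted p = 3.57e-06). A further aspartic peptidase, DICSQDRAFT_89467, had 54.8 and 49.6 RPKM against 366 and 338 RPKM (log2 fold change -2.98 ± 0.45, adjusted p = 0.00115). Subtilisin-like protein DICSQDRAFT_100668 was the most abundant of these, with 255 and 242 RPKM against 1169 and 1197 RPKM (log2 fold change -2.48 ± 0.25, adjusted p = 4.11e-05). None of the 4 overlapped between substrates, as their selection required, and the metalloprotease given above was the largest change in the other direction. Higher calls numbered 8 without hull replicate 2, 9 without wheat bran replicate 2 and 11 without either other library, with 25 to 27 lower.

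The other described genes among the 15 that were lowest on wheat bran came from amino acid, vitamin and sugar-chain metabolism. A gene whose KEGG best hit is O-acetylhomoserine thiol-lyase, DICSQDRAFT_170701, of methionine and cysteine synthesis, had 113 and 111 RPKM on wheat bran and 803 and 873 RPKM on hulls (log2 fold change -3.13 ± 0.33, adjusted p = 0.000115). The family GH47 protein DICSQDRAFT_110961, of alpha-mannosidases that trim sugar chains on proteins, had 13.3 and 12.1 RPKM against 91.9 and 93.7 RPKM (log2 fold change -3.10 ± 0.14, adjusted p = 1.89e-10). Thi4-domain protein DICSQDRAFT_134894, of thiamine synthesis, had 3.24 and 3.39 RPKM against 19.1 and 18.7 RPKM (log2 fold change -2.74 ± 0.25, adjusted p = 8.04e-07). All 3 had both hull libraries several times above both wheat bran libraries, and their selection required that they lie above. A pyridoxal phosphate-dependent transferase, DICSQDRAFT_108482, a thioredoxin-like protein, DICSQDRAFT_148760, and a membrane protein of the eicosanoid and glutathione metabolism family, DICSQDRAFT_76710, had log2 fold changes of -2.37, -2.44 and -2.45. The hypothetical genes DICSQDRAFT_61994 and DICSQDRAFT_77373 had the largest changes of the undescribed genes in this direction. The first had 5.9 and 5.37 RPKM on wheat bran and 82.9 and 88.2 RPKM on hulls (log2 fold change -4.16 ± 0.14), and the second had 5.63 and 4.81 RPKM against 56.9 and 39.6 RPKM (log2 fold change -3.44 ± 0.25).

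Hydrophobins and other surface proteins were among the abundant genes that differed. Of 15 tested hydrophobins of 16, 4 were lower on wheat bran and 1 higher, with a median of -0.31. Those shares were 26.7% and 6.67%, against 18.5% and 15.2% of all genes. Hydrophobin-315 DICSQDRAFT_62584, the most abundant, had 423 and 398 RPKM on wheat bran and 1569 and 1513 RPKM on hulls (log2 fold change -2.14 ± 0.10, adjusted p = 4.69e-10). DICSQDRAFT_167756 had 312 and 436 RPKM against 1196 and 1173 RPKM (log2 fold change -1.90 ± 0.26, adjusted p = 0.000397). DICSQDRAFT_62768 was at 2.8 and 5.74 RPKM against 36.3 and 39.6 RPKM (log2 fold change -3.36 ± 0.29, adjusted p = 2.62e-07). Each had both wheat bran libraries below both hull libraries, as the selection of DICSQDRAFT_62768 for a large change required. The fourth, DICSQDRAFT_54466, named after its values were seen, had 158 and 221 RPKM against 487 and 565 RPKM (log2 fold change -1.71 ± 0.19, adjusted p = 4.94e-05). The single higher hydrophobin, DICSQDRAFT_184249, also named after its values were seen, had 200 and 223 RPKM against 117 and 114 RPKM (log2 fold change 0.64 ± 0.19, adjusted p = 0.0196), a call lost without wheat bran replicate 2 (adjusted p = 0.0999), hull replicate 1 (adjusted p = 0.0826) and hull replicate 2 (adjusted p = 0.0977). Thaumatin-like protein DICSQDRAFT_152858, of a family of secreted defence-type proteins, had 2098 and 1828 RPKM on wheat bran and 4675 and 4634 RPKM on hulls (log2 fold change -1.48 ± 0.23, adjusted p = 0.000317).

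Uptake systems leaned the other way for nitrogen compounds and peptides. Of 23 genes for uptake and release of nitrogen compounds 9 were higher on wheat bran and none lower, with a median of 0.28. That was 39.1% higher and 0% lower, against 15.2% and 18.5% of all genes. DESeq2 size factors gave 8 and 1. Urea transporter DICSQDRAFT_101546 had 11.4 and 11.2 RPKM on wheat bran and 3.92 and 4.81 RPKM on hulls (log2 fold change 1.14 ± 0.28, adjusted p = 0.00994), a call lost without hull replicate 1 (adjusted p = 0.0684). Ammonium transporter DICSQDRAFT_112666, named after its values were seen, had 137 and 130 RPKM against 73.3 and 68.3 RPKM (log2 fold change 0.69 ± 0.09, adjusted p = 2.59e-05). Both had both wheat bran libraries on top, an order found in 57.4% of all genes. Leaving out 1 library in turn left 6 or 7 of the 23 higher.

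Among 44 peptide and amino acid transporters 17 were higher (38.6%, against 15.2% of all genes) and 8 lower (18.2%, near the 18.5%). Their median was 0.24. The most abundant of them was an exception, since oligopeptide transporter DICSQDRAFT_94742 had 1405 and 1372 RPKM on wheat bran and 3265 and 3486 RPKM on hulls (log2 fold change -1.51 ± 0.15, adjusted p = 8.42e-07). General amino acid permease DICSQDRAFT_141282, named after its values were seen, had 170 and 170 RPKM against 64.2 and 65.2 RPKM (log2 fold change 1.16 ± 0.10, adjusted p = 2.13e-07). The 17 higher calls became 10 without wheat bran replicate 1, 11 without wheat bran replicate 2 and 8 without hull replicate 2. Sugar transporters had 4 of 26 higher (15.4%, near the 15.2% of all genes) and 8 lower (30.8%, against 18.5%). With library size alone 7 were higher and 3 lower. The monosaccharide transporter DICSQDRAFT_153259 had 544 and 546 RPKM on wheat bran and 1209 and 1261 RPKM on hulls (log2 fold change -1.41 ± 0.11, adjusted p = 1.11e-07). It was lower on wheat bran without overlap, an order found in 19.2% of all genes. Sugar transporters called higher numbered 2 without wheat bran replicate 1, 1 without wheat bran replicate 2 or hull replicate 1, and 0 without hull replicate 2, with 4 to 6 lower.

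Iron permease DICSQDRAFT_157992, which carries iron into the cell after its oxidation, had 742 and 701 RPKM on wheat bran and 409 and 395 RPKM on hulls (log2 fold change 0.61 ± 0.14, adjusted p = 0.00336). Copper uptake transporter DICSQDRAFT_172557 differed in the opposite direction, with 250 and 225 RPKM against 361 and 338 RPKM (log2 fold change -0.79 ± 0.11, adjusted p = 6.31e-05). The shares of metal uptake genes called higher and lower were 15.4% and 30.8%, beside 15.2% and 18.5% of all genes. Metal uptake genes as a list had 2 of 13 higher and 4 lower, and 1 higher without any 1 of the 4 libraries.

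Cytochromes P450, monooxygenases that hydroxylate fatty acids and aromatic compounds, rose more often than they fell. Of 155 tested members of 160, 49 were higher (31.6%, against 15.2% of all genes) and 15 lower (9.68%, against 18.5%). Their median was 0.40 against 0.02 for all genes. At least 2-fold differences were found for 17 higher and 7 lower, against 4.19% and 3.53% of all genes. The most abundant member, DICSQDRAFT_154131, had 842 and 887 RPKM on wheat bran and 549 and 524 RPKM on hulls (log2 fold change 0.46 ± 0.12, adjusted p = 0.00687), a call lost without wheat bran replicate 2 (adjusted p = 0.0567) and hull replicate 2 (adjusted p = 0.0661). Among members that reached 10 RPKM the largest change went the other way, DICSQDRAFT_94193 at 44.5 and 44.5 RPKM against 161 and 160 RPKM (log2 fold change -2.08 ± 0.09, adjusted p = 1.18e-10). A P450 described as upregulated at high nitrogen, DICSQDRAFT_179419, named after its values were seen, had 37.1 and 35.1 RPKM against 7.35 and 7.61 RPKM (log2 fold change 2.04 ± 0.17, adjusted p = 2.8e-07). The list therefore held strong changes in both directions. The higher count fell to 32 without hull replicate 2, and the lower count to 9 without wheat bran replicate 2.

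Ribosomal protein genes, which build the translation machinery, had 48 of 76 higher and 1 lower, with a median of 0.29 and none at least 2-fold. Those shares were 63.2% and 1.32%, against 15.2% and 18.5% of all genes. The ubiquitin and S27a fusion gene DICSQDRAFT_65828, the most abundant, had 744 and 702 RPKM on wheat bran and 468 and 487 RPKM on hulls (log2 fold change 0.37 ± 0.08, adjusted p = 0.00237). Without wheat bran replicate 1 and without hull replicate 1 the higher count was 27 and 26. Proteasome genes, whose products degrade tagged proteins, had 5 of 17 lower (29.4%, against 18.5% of all genes) and none higher. With library size alone 4 were higher and none lower. Without wheat bran replicate 2, hull replicate 1 or hull replicate 2 there were 2 lower. Chaperones and heat shock genes had 8 of 41 tested members lower (19.5%, near the 18.5% of all genes). Higher were 2 of them (4.88%, against 15.2% of all genes). With library size alone 5 were lower and 6 higher. The heat shock 70 protein HSS1, DICSQDRAFT_97767, had 149 and 110 RPKM against 279 and 233 RPKM (log2 fold change -1.21 ± 0.23, adjusted p = 0.00221). Without 1 library in turn, 1 chaperone gene was higher and 5 or 6 lower.

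In the glyoxylate cycle, which builds sugars from fatty acids, 1 of 2 members was higher (50%, against 15.2% of all genes) and none lower. Isocitrate lyase DICSQDRAFT_112226 had 121 and 140 RPKM on wheat bran and 71.6 and 71.7 RPKM on hulls (log2 fold change 0.64 ± 0.15, adjusted p = 0.00582), a call lost without wheat bran replicate 2 (adjusted p = 0.0546). Malate synthase DICSQDRAFT_79688 had 51.3 and 45.8 RPKM against 63.6 and 56.5 RPKM, with both wheat bran libraries below both hull libraries, and did not pass (log2 fold change -0.54 ± 0.26, adjusted p = 0.15). Of 4 genes of pentose catabolism 3 were lower (75%, against 18.5% of all genes) and none higher. They included the xylitol dehydrogenases, with log2 fold changes of -0.49 ± 0.10 (adjusted p = 0.00131) and -0.36 ± 0.10 (adjusted p = 0.0086). Xylose reductase DICSQDRAFT_95722, the entry of xylose into metabolism, had 224 and 202 RPKM against 215 and 194 RPKM and did not pass (log2 fold change -0.17 ± 0.15, adjusted p = 0.424).

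Genes of DNA replication and histones, the proteins that package DNA, had 6 of 16 lower and 1 higher. Those shares were 37.5% and 6.25%, against 18.5% and 15.2% of all genes. With library size alone 4 were lower and 6 higher. Of the 6 histone genes in the list, 5 were lower and none higher. Histone H2A DICSQDRAFT_137361 had 17.2 and 15.7 RPKM on wheat bran and 35.4 and 28.3 RPKM on hulls (log2 fold change -1.18 ± 0.24, adjusted p = 0.00169). The most abundant histone gene, H3 DICSQDRAFT_131703, had 1416 and 1377 RPKM against 1132 and 1175 RPKM and did not pass (log2 fold change 0.04 ± 0.08, adjusted p = 0.719). The other H3 genes DICSQDRAFT_108935 and DICSQDRAFT_65256 and H2B DICSQDRAFT_137367, named after their values were seen, had log2 fold changes of -0.86, -0.83 and -0.58. Histone H2A DICSQDRAFT_81391 overlapped between the substrates in RPKM, at 224 and 215 on wheat bran and 224 and 238 on hulls (log2 fold change -0.30 ± 0.08, adjusted p = 0.00999), and its call did not hold under library size alone (adjusted p = 0.485), without wheat bran replicate 2 (adjusted p = 0.0856) and without hull replicate 2 (adjusted p = 0.102). The call of DICSQDRAFT_65256 was lost without wheat bran replicate 2 (adjusted p = 0.1), hull replicate 1 (adjusted p = 0.0549) and hull replicate 2 (adjusted p = 0.0802). The list's lower count was 3 without wheat bran replicate 2 or hull replicate 2 and 4 without hull replicate 1, and its higher count was 0 without hull replicate 1.

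Several of the 8 genes with the highest mean RPKM over the 4 libraries have no description. DICSQDRAFT_151452 had 9142 and 9679 RPKM on wheat bran and 13942 and 14784 RPKM on hulls (log2 fold change -0.84 ± 0.12, adjusted p = 5.73e-05). DICSQDRAFT_93145 had 12994 and 12418 RPKM against 10568 and 9603 RPKM (log2 fold change 0.10 ± 0.12, adjusted p = 0.546). The partial gene model DICSQDRAFT_73523 had 7748 and 15527 RPKM against 6250 and 6203 RPKM (log2 fold change 0.67 ± 0.42, adjusted p = 0.255).

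Other lists gave fewer clear members. Of all genes 15.2% were higher and 18.5% lower. Those shares were 27.5% and 13.8% for general substrate transporters, 5.56% and 38.9% for fatty acid oxidation, and 11.1% and 33.3% for glycolysis. Of 138 general substrate transporters, membrane carriers of unassigned cargo, 38 were higher and 19 lower, with 63 and 9 by library size alone, and without hull replicate 2 the higher count was 18, without hull replicate 1 it was 23 and without either wheat bran library 25. Terpenoid synthases, which make the carbon skeletons of terpenes, had 6 of 21 higher (28.6%) and 2 lower (9.52%). Genes of fatty acid oxidation had 7 of 18 lower and 1 higher, with 3 and 2 by library size alone, and none was higher without any 1 of the 4 libraries. Lipases and esterases had 12 of 41 lower (29.3%, against 18.5% of all genes) and 6 higher (14.6%, near the 15.2% of all genes), and 8 each by library size alone. Their higher count was 2 without hull replicate 2 and 3 without either wheat bran library. For glycolysis 3 of 9 were lower and 1 higher, which turned to 0 and 3 by library size alone, and the lower count was 0 without wheat bran replicate 2, 1 without either hull library and 2 without wheat bran replicate 1.

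The same substrates at day 16, in other libraries, show which day 9 differences were found again. On day 16, 3320 genes (31.4%) passed, 1381 (13%) higher and 1939 (18.3%) lower. Of the day 9 calls, 688 higher genes were higher again, which is 42.7% of the day 9 and 49.8% of the day 16 set, and 1130 lower genes were lower again, 57.6% and 58.3%. Among genes at least 4-fold apart on day 9, 52 of 56 lower genes (0.529% of the genes tested) were lower on day 16 and 36 of 72 higher genes (0.68%) were higher. The test of the difference between the days passed for 994 genes (9.39%).

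The plant wall enzymes named next were lower on wheat bran at day 16 too. PG1 was at 65.2 ± 4.17 RPKM (SD, n = 2) on wheat bran and 536 ± 14.4 RPKM on hulls, with a log2 fold change of -3.51 ± 0.24 (adjusted p = 1.32e-06). Its gap was narrower than on day 9, and the difference between the days passed (adjusted p = 0.00481). Cellobiohydrolase II had 118 ± 4.9 RPKM against 371 ± 4.17 RPKM (log2 fold change -2.12 ± 0.16, adjusted p = 1.57e-07). Pectinases as a list had 10 of 13 lower and none higher, with a median of -1.82, and mannanases and galactosidases 12 of 16 lower. Of all genes 18.3% were lower and 13% higher on day 16. For the alpha-galactosidase DICSQDRAFT_79806 the day 16 values were 116 ± 12.7 RPKM against 1038 ± 22.4 RPKM (log2 fold change -3.63 ± 0.15), and the gap had widened (adjusted p of the difference = 3.52e-05).

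Among the genes higher on wheat bran on day 9, DICSQDRAFT_182026 and the DyP-type peroxidase did not pass on day 16. DICSQDRAFT_182026 was at 37.7 ± 3.97 RPKM on wheat bran and 21.2 ± 1.53 RPKM on hulls on day 16 (log2 fold change 0.36 ± 0.39, adjusted p = 0.548), and the days differed (adjusted p = 7.29e-05). The DyP-type peroxidase was at 364 ± 16.9 RPKM against 228 ± 16.7 RPKM (log2 fold change 0.21 ± 0.16, adjusted p = 0.365), and the days differed too (adjusted p = 8.2e-06). The ricin B-like lectin kept its gap at a lower level, 114 ± 15.3 RPKM against 0.245 ± 0.00922 RPKM (log2 fold change 8.28 ± 0.97, adjusted p = 0.000213), where the hull value rests on few reads. The small heat shock protein kept a log2 fold change of 2.04 ± 0.26 (adjusted p = 0.000131).

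**Figure D4:**
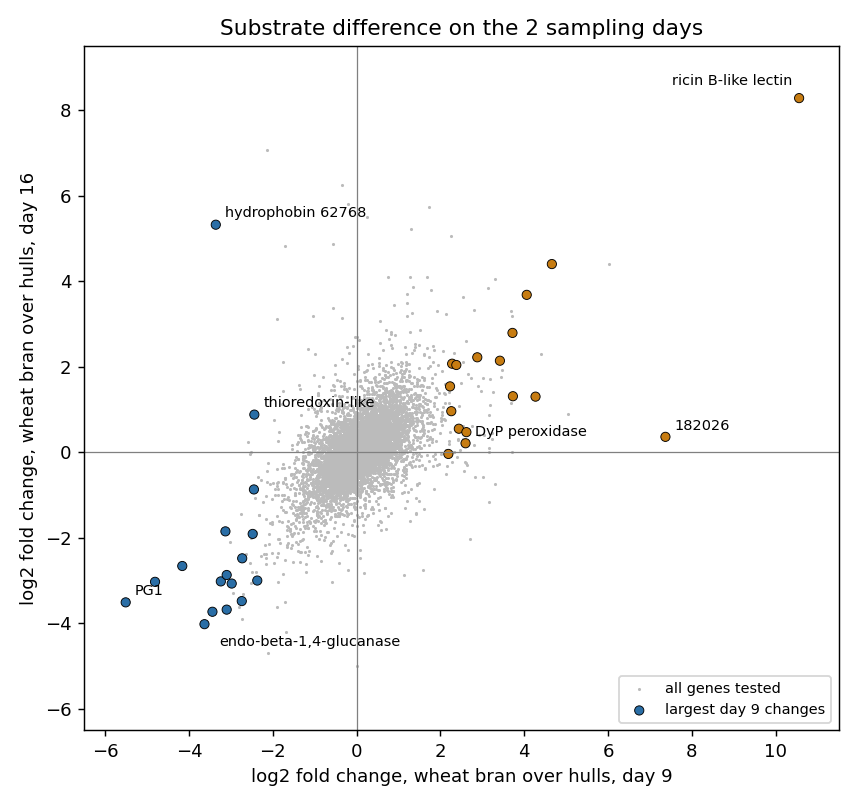
Log2 fold change of wheat bran over cotton seed hulls on day 16 against that on day 9, with all genes tested in grey and the 34 genes of largest day 9 change in colour, orange for higher and blue for lower on wheat bran. DICSQDRAFT_182026 falls from 7.37 to 0.36, and hydrophobin DICSQDRAFT_62768 turns from -3.36 to 5.32.

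Hydrophobins gave 3 genes that were lower on wheat bran on day 9 and higher on day 16. On day 16, 8 of 15 were higher on wheat bran and 1 lower, with a median of 1.77, and the difference between the days passed for 9 of 15. Of all genes 13% were higher and 18.3% lower on day 16, and 9.39% passed for the difference. DICSQDRAFT_62768 had 99.7 ± 9.91 RPKM on wheat bran and 1.8 ± 1.57 RPKM on hulls (log2 fold change 5.32 ± 0.32, adjusted p = 3.14e-09), a difference between days of 8.68 ± 0.44 (adjusted p = 9.25e-09). DICSQDRAFT_167756 had 1134 ± 45.2 RPKM against 94 ± 9.11 RPKM (log2 fold change 3.12 ± 0.28), and DICSQDRAFT_54466 had 2355 ± 114 RPKM against 59.6 ± 11.9 RPKM (log2 fold change 4.83 ± 0.22). In these 3 genes the order of the substrates on day 16 was the reverse of that on day 9. Hydrophobin-315 alone stayed lower among the 4, at 1916 ± 42.6 RPKM against 2229 ± 96.3 RPKM (log2 fold change -0.69 ± 0.10, adjusted p = 4.92e-05). DICSQDRAFT_55052, named after its values were seen, did not pass on day 9, at 127 and 196 RPKM on wheat bran and 176 and 176 RPKM on hulls, and had a log2 fold change of 6.26 ± 0.52 on day 16 (adjusted p = 2.14e-05).

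**Figure D5:**
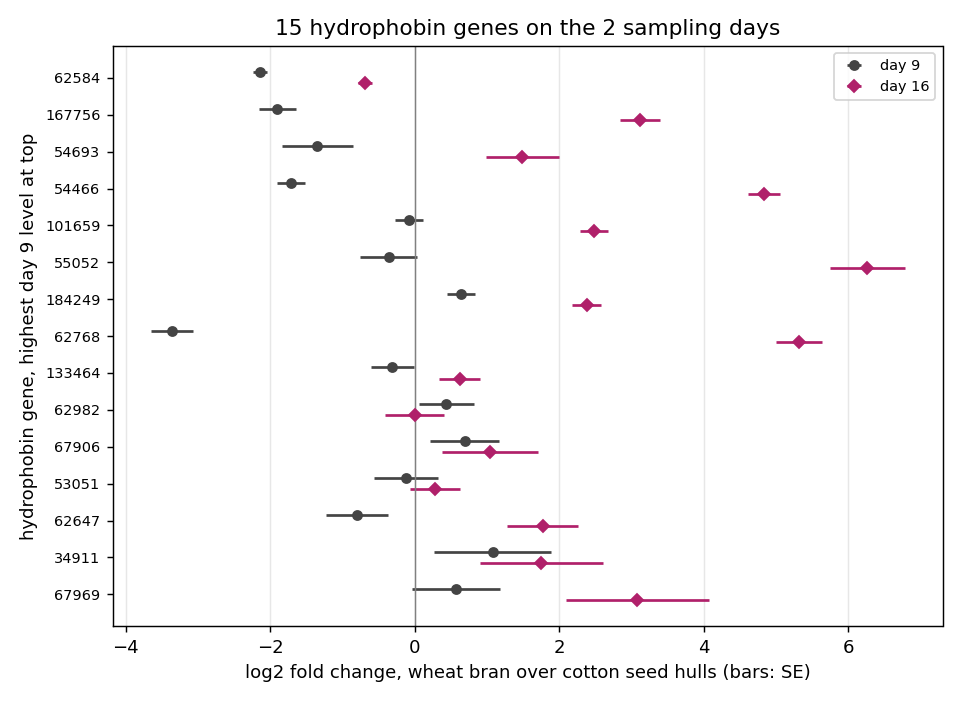
Log2 fold change of wheat bran over cotton seed hulls for the 15 tested hydrophobin genes, circles for day 9 and diamonds for day 16, with the SE as a bar and the genes ordered by their day 9 level. DICSQDRAFT_62768, DICSQDRAFT_167756 and DICSQDRAFT_54466 lie below 0 on day 9 and above 0 on day 16.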

How the data were processed

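The labels and headers name no strand, aligner or genome build (not given in the sources used here), so overlapping and antisense genes, and near-identical copies, are uncertain. Per the file headers, the authors deposited for each library the count of unique reads per gene model and the RPKM, which was recomputed from reads, gene length and library total. A gene missing from a file was taken as 0 reads. Counts of all 16 libraries were fitted with edgeR 4.0.16 in R 4.3.3 (quasi-likelihood, robust, trimmed mean of M-values, 1 mean per group, 8 residual degrees of freedom) after its filter on low counts, which removed 826 of 11410 genes. Benjamini-Hochberg adjustment ran over all 10584 genes tested, two-sided. DESeq2 1.42.0 and limma 3.58.1 served as alternatives, with library size alone, no filter, fewer libraries, a replicate block and each library left out.

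Named genes passed the threshold, did not overlap in RPKM and reached a mean of 10 RPKM or more in one substrate. They were the 15 described and 2 undescribed genes of largest change in each direction and the member of largest change in each list. To these were added the 2 members of highest RPKM in each list and the 8 genes of highest RPKM, whether or not called. Genes outside this rule are said to be named after their values were seen. The comparison, its lists and tests were chosen with earlier results of these data known. Gene lists were built from the descriptions and KEGG best hits in the files. Intervals cover counting error only.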

Additional observations from a re-analysis of the deposited data

Results flagged for a closer look

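For the genes given here the substrate difference itself differed between the days, by edgeR's test of the difference with adjusted p under 0.05, and values are the day 16 minus the day 9 log2 fold change of wheat bran over cotton seed hulls. Groups of 2 libraries are too small for a test of single outlying libraries. A gap is the size of the log2 fold change, whatever its sign. Among genes given below with a smaller gap, the sign was opposite on day 16 for DICSQDRAFT_137361, DICSQDRAFT_137367, DICSQDRAFT_179178, DICSQDRAFT_180751, DICSQDRAFT_50355 and DICSQDRAFT_65256. Among those with a larger gap it was opposite for DICSQDRAFT_55052.

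Called in opposite directions on the days were genes with differences of 3.32 for DICSQDRAFT_148760, -1.44 for DICSQDRAFT_164183, 5.02 for DICSQDRAFT_167756, -1.41 for DICSQDRAFT_176670, -0.92 for DICSQDRAFT_51840, 6.54 for DICSQDRAFT_54466 and 8.68 for DICSQDRAFT_62768.

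The gap was smaller on day 16 for genes with differences of 0.93 for DICSQDRAFT_104474, 1.80 for DICSQDRAFT_137361, 0.79 for DICSQDRAFT_137367, -0.48 for DICSQDRAFT_141282, -2.39 for DICSQDRAFT_150405, 1.10 for DICSQDRAFT_152858, 1.77 for DICSQDRAFT_154478, 2.00 for DICSQDRAFT_154984, -2.97 for DICSQDRAFT_156959, -0.69 for DICSQDRAFT_161018, 0.99 for DICSQDRAFT_167685, -2.09 for DICSQDRAFT_172150, -2.23 for DICSQDRAFT_179178, -1.41 for DICSQDRAFT_179419, 1.09 for DICSQDRAFT_180751, -7.02 for DICSQDRAFT_182026, -1.89 for DICSQDRAFT_182673, 2.92 for DICSQDRAFT_50355, 1.50 for DICSQDRAFT_61994, 1.45 for DICSQDRAFT_62584, 1.43 for DICSQDRAFT_65256 and 1.58 for DICSQDRAFT_76710.

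The gap was larger on day 16 for genes with differences of -0.64 for DICSQDRAFT_108482, -0.76 for DICSQDRAFT_132822, -1.11 for DICSQDRAFT_142507, -0.91 for DICSQDRAFT_153259, 1.73 for DICSQDRAFT_184249, 6.61 for DICSQDRAFT_55052, -1.34 for DICSQDRAFT_63786, -1.24 for DICSQDRAFT_65561, -1.73 for DICSQDRAFT_79806 and -0.58 for DICSQDRAFT_84199.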

How the results depend on the processing

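Scaling decided the balance of calls. On day 9, 3345 genes were higher and 933 lower with library size alone, 3420 and 904 with limma on log2(RPKM + 0.1), and 3364 and 912 with limma on log2(RPKM + 1). On day 16 the same settings gave 6473 calls (5848 higher, 625 lower), 6624 (6004 and 620) and 6541 (5923 and 618). For the difference between the days they gave 1628 (1358 and 270), 1610 (1328 and 282) and 1535 (1263 and 272). Leaving out each library in turn gave 2239 to 2532 calls on day 9 (887 to 1049 higher, 1343 to 1511 lower), 2108 to 2291 on day 16 (768 to 850 higher, 1310 to 1441 lower) and 538 to 647 for the difference (263 to 321 and 275 to 351). A group left with 1 library is assumed there to vary like the others. DESeq2 gave 1144 higher and 1938 lower on day 9. Fits without the wood libraries called more genes on day 9 than the 1611 higher and 1963 lower of the main fit. With only the 4 libraries compared there were 2284 higher and 2502 lower, and with the 8 wheat bran and hull libraries 2277 and 2614. Among the wheat bran and hull groups, replicate numbers did not pair the libraries (correlations of deviations from -0.00655 to 0.0461). The wood groups, which also set the spread, were not checked for such pairing. A fit with the replicate block gave 1655 higher and 2032 lower on day 9. It gave 1403 and 1979 on day 16, and 477 and 563 for the difference. Of 86 genes named here that passed on day 9, 76 passed in the same direction in every alternative run and 10 lost the call in at least 1. The cause was not tested.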
